A study of Mus musculus with 14 samples.

Results

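Intergenic H3K4me3 regions are stretches of the mouse genome that carried an H3K4me3 peak in both day 3 libraries of ATDC5 cells and lay away from annotated genes. They were the overlaps of the 2 day 3 peak lists, on assembled chromosomes, that lay over 1 kb from every end of any RefSeq gene of any biotype and had their midpoint inside no gene span. Of 21011 overlaps, 2388 (11.4%) were intergenic. A further 14041 had a gene's first or last base within 1 kb and are called gene-end regions, and 4582 lay inside genes away from their ends. The day 3 H3K4me3 lists and the gene table chose the regions, so the regions were selected on their day 3 H3K4me3 peaks, and their number, width, strength, distance to genes and clustering are given as descriptions without a test. Days 0 and 10 and the RUNX2 lists took no part in the choice. The same rule applied to a single list gave 6095 regions from replicate 1 and 5975 from replicate 2.

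ATDC5 is a chondrogenic mouse line derived from a teratocarcinoma. Chromatin was taken on day 0 from undifferentiated cells kept by serial passaging, and on days 3 and 10 from cells spotted as dense droplets and given bGP (β-glycerophosphate) and an ascorbate phosphate. H3K4me3 and RUNX2 were each precipitated in 2 libraries per day, numbered 1 and 2. No genetic change or other agent is named for any group, and whether equal days were sampled from separate cultures is not stated, so differences within a day may be technical. The labels give a cell type number that differs from sample to sample, which was not resolved. H3K4me3 peaks numbered 13765 and 20863 in the 2 libraries of day 0, then 28653 and 26781 (day 3), then 15219 and 29022 (day 10). For RUNX2 there were 19319 and 16859 peaks on day 3, against 97 to 108 in each library of days 0 and 10. The number of reads behind them is unknown, so a region without a peak had none called at that library's depth. Of the markers of the line, Sox9, Col2a1, Runx2, Prrx1 and Twist1 had H3K4me3 at a gene end in all 6 lists and Acan in the 4 lists of days 3 and 10. Between 1 and 10 of 22 genes were marked per list for muscle, neuron, blood, epithelium and pluripotency.

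Trimethylation of lysine 4 on histone H3 is placed around the starts of transcribed genes, and is usually scarce elsewhere. Away from annotated genes the mark is known at starts of unannotated or long primary transcripts, among them those that carry microRNAs (miRNAs), and in weaker form at strong enhancers. RUNX2 is a runt-domain transcription factor that osteoblasts and hypertrophic chondrocytes require, and it binds both promoters and distant enhancers.

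Of the 5 widest intergenic regions, 2 lay upstream of miRNA hairpins, so mature miRNAs of 4 loci with a region upstream, chosen after the values were seen, are shown. They show which miRNAs lie beside these regions, some of which were neither wide nor highly ranked. A miRNA pairs with its targets mainly through its seed, and the capitals mark the seed, bases 2 to 8. The sequences are those of RefSeq for GRCm38.p6, in RNA letters.
mmu-miR-23a-3p: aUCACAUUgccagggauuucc
mmu-miR-27a-3p: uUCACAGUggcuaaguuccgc
mmu-miR-24-3p: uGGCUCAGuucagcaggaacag
mmu-let-7a-5p: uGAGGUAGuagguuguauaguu
mmu-let-7d-5p: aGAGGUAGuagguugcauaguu
mmu-let-7f-5p: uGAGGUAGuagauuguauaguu
mmu-miR-17-5p: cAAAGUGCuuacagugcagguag
mmu-miR-20a-5p: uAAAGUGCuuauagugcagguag
mmu-miR-322-5p: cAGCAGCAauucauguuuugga
mmu-miR-503-5p: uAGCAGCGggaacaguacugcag
The first 3 come from the plus strand of chromosome 8, where the mature miR-23a lies at chr8:84208563-84208583. The let-7 members share 1 seed and come from the minus strand of chromosome 13 (mature let-7a at chr13:48538239-48538260). miR-17 and miR-20a also share a seed and come from the plus strand of chromosome 14 (mature miR-17 at chr14:115043684-115043706), and miR-322 and miR-503 from the minus strand of the X chromosome (mature miR-322 at chrX:53054306-53054327). The regions upstream of them are described at the end.

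Intergenic regions were narrow and weak beside gene-end regions. Their median width was 437 bp (quartiles 269 and 773 bp, range 1 to 8178 bp), against 1363 bp for gene-end regions and 528 bp for regions inside genes. Under 500 bp were 1354 intergenic regions (56.7%), against 13.6% of gene-end regions, and 50 (2.09%) were 2 kb or wider, against 20.8%. The median fold enrichment that the authors' caller gave at the peak summit was 9.98 in replicate 1 and 5.49 in replicate 2, against 22.1 and 9.26 at gene ends. By mean rank of −log10 q in the 2 lists, 38.1% of intergenic regions ranked above the midpoint of the lists, against 85.9% of gene-end regions. Across the 2388 regions the −log10 q of the 2 libraries had a Spearman correlation of 0.66, as a description of regions that share libraries.

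**Figure D1:**
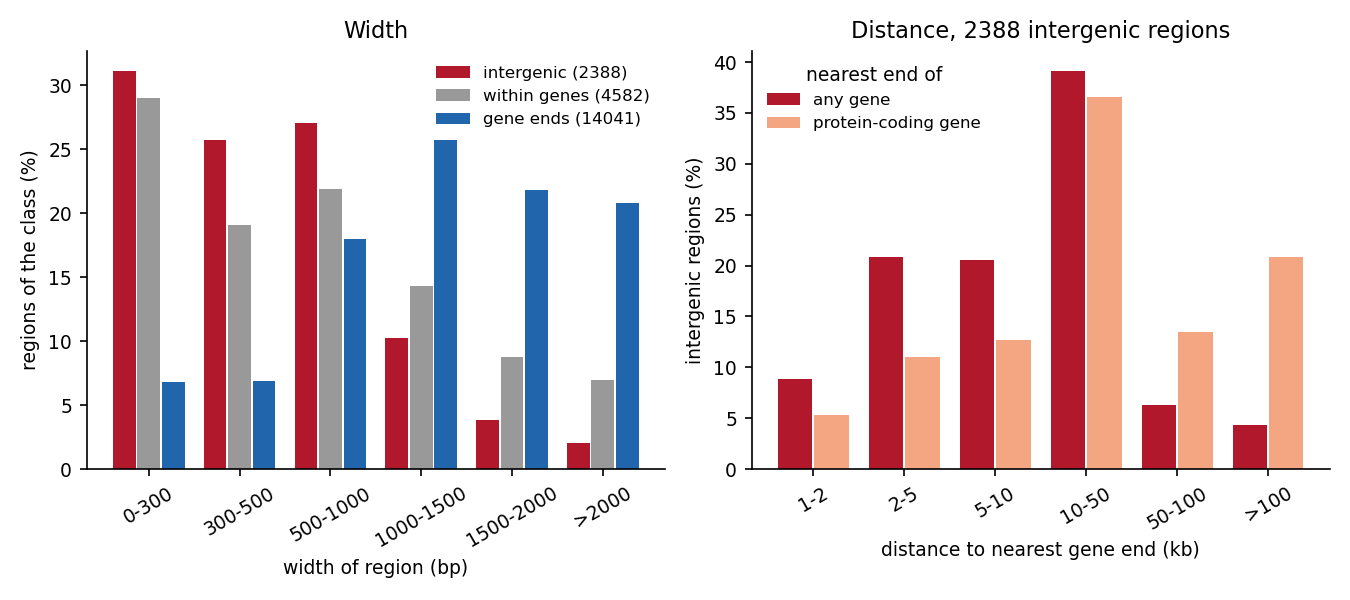
Left, share of day 3 H3K4me3 regions by width in bp for intergenic regions, regions inside genes and gene-end regions. Right, share of the 2388 intergenic regions by distance in kb to the nearest end of any gene or of a protein-coding gene; intergenic regions are mostly under 500 bp (56.7%) and lie at a median of 9908 bp from a gene.

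The regions with the best mean rank had peaks on nearly all days, and none lay nearest to a listed skeletal gene. Among the 10 with the best rank, all 10 had H3K4me3 in both day 10 lists and RUNX2 in both day 3 lists, and 9 had H3K4me3 in both day 0 lists. A group of 4 of them, noticed after the values were seen, lay close together on chromosome 6. One of these 4, chr6:47771700-47773204, lay 8420 bp from Rny3, a gene for a small Y RNA, with fold enrichments of 4.32 and 15.0 (day 0), 39.6 and 25.8 (day 3) and 6.85 and 22.7 (day 10). Fold enrichments depend on the library, so these values cannot be compared between days. The 5 widest were led by chr15:85679442-85687619 (8178 bp) and chr7:73614529-73620021 (5493 bp, 72783 bp from Chd2, which encodes a chromatin remodeller). All 5 had RUNX2 in both day 3 lists and 4 had H3K4me3 in both lists of each of days 0 and 10.

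On the other days, intergenic regions were found less often than gene-end regions in each of the 4 H3K4me3 lists. On day 0 a peak overlapped 16.5% of them in replicate 1 and 45.3% in replicate 2, against 76.0 and 89.0% of gene-end regions. On day 10 the shares were 31.4 and 89.0%, against 86.1 and 97.9%. The 4 intergenic shares stood in the same order as the lengths of the 4 lists, and the part of list length was not tested. The mean difference between classes over the 4 libraries was −41.7 percentage points, intergenic minus gene-end. An exact sign-flip permutation test gave p = 0.125, two-sided, the smallest that 4 libraries allow (adjusted over the 4 tests made, 0.5).

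**Figure D2:**
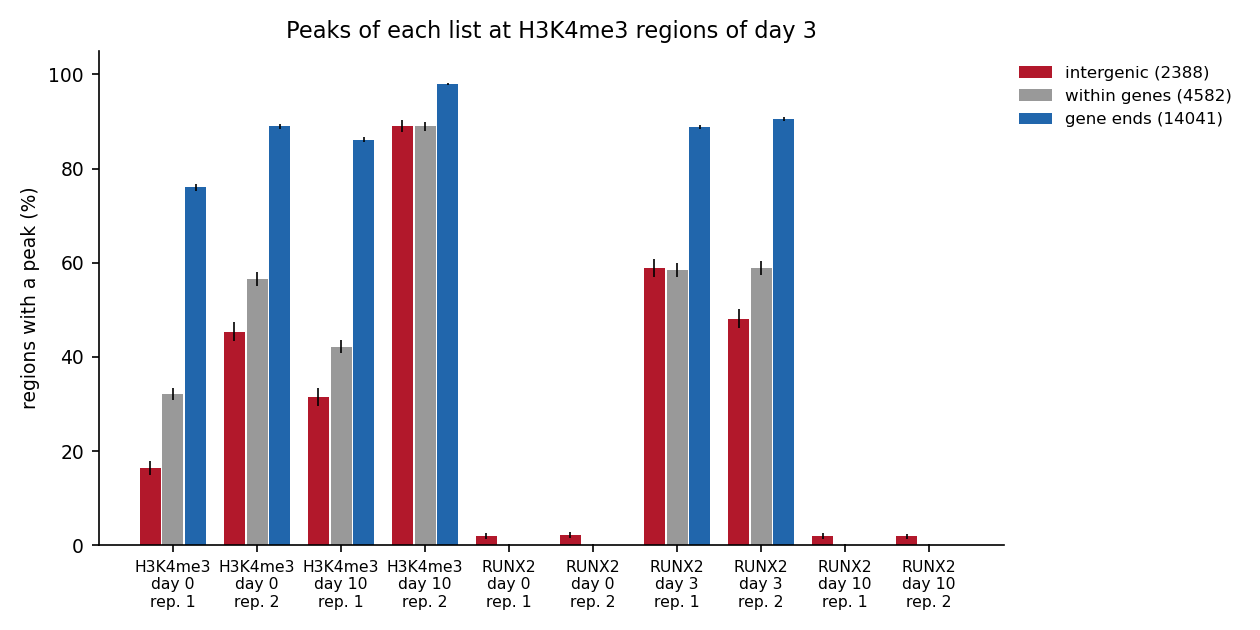
Share of day 3 H3K4me3 regions (%) that overlapped a peak in each H3K4me3 list of days 0 and 10 and each RUNX2 list, for intergenic regions, regions inside genes and gene-end regions; error bars are exact 95% intervals for counting error only. Intergenic regions lie below gene-end regions in all 4 H3K4me3 lists and in both RUNX2 day 3 lists, with 58.9 and 48.2% for RUNX2 against 88.8 and 90.5%.

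Requiring both libraries, 373 intergenic regions (15.6%, exact 95% interval 14.2 to 17.1%) had H3K4me3 on day 0. The share was 58.8% over all 21011 regions and 30.7% inside genes. On day 10 the intergenic regions numbered 751 (31.4%, 29.6 to 33.4%), where these shares were 70.3 and 42.1%. A peak in all 6 lists was found at 317 (13.3%, all regions 57.5%, inside genes 28.0%). A peak in the day 3 lists only was found at 228 (9.55%, all regions 4.13%, inside genes 9.08%). The 317 regions were wide, with a median of 1174 bp, and the 228 narrow, with a median of 215.5 bp. Neither day 10 list had a peak at 262 (11.0%, all regions 4.98%, inside genes 10.9%). The most frequent pattern, in 906 regions (37.9%), was no peak on day 0 and a peak in 1 of the 2 day 10 lists. That list was always replicate 2, the longer one, with 29022 peaks against 15219. The share over all regions is not given for this pattern. Day 0 was absent and day 10 present in both lists at 152 regions (6.37%, all regions 3.62%, inside genes 5.30%). These intervals treat regions as independent and do not cover the spread between libraries.

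Between days 10 and 0 the mean share of intergenic regions with H3K4me3 differed by 29.4 percentage points (60.2 ± 40.7% on day 10 and 30.9 ± 20.4% on day 0, SD, n = 2 each). The libraries of the 2 days overlapped, and the exact permutation test gave p = 0.667, two-sided, with 0.333 the smallest p that 2 against 2 libraries allow. The difference rested on replicate 2 of day 10: it was 0.565 points without that library and 58.1 points without replicate 1 of day 10. It was 14.9 points without replicate 1 of day 0 and 43.8 points without replicate 2 of day 0. With each H3K4me3 list cut to its 13765 top peaks, which left 678 regions, it was 19.2 points. The labels state no pairing of replicate numbers. Within equal numbers, 1078 regions were found in replicate 2 of day 10 but not of day 0 and 34 the other way. For replicate 1 the counts were 426 and 68. In both, the day 10 list was the longer. Shares were higher on day 10 in the other classes too. Inside genes they were 32.1 and 42.2% in replicate 1 of days 0 and 10, and 56.5 and 89.0% in replicate 2. At gene ends they were 76.0 and 86.1%, and 89.0 and 97.9%. The part of list length was not tested. All 751 regions of replicate 1 of day 10 were also in replicate 2, and 373 of the 393 in replicate 1 of day 0.

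RUNX2 was present at many intergenic regions on day 3 and at few on days 0 and 10. A RUNX2 peak overlapped 58.9% in replicate 1 and 48.2% in replicate 2 of day 3, against 1.97 and 2.14% in the libraries of day 0 and 1.97 and 1.88% in those of day 10. The mean difference between days 3 and 0 was 51.5 percentage points (53.5 ± 7.58% on day 3 and 2.05 ± 0.118% on day 0, SD, n = 2 each). The groups did not overlap, and the exact permutation test gave p = 0.333, two-sided, the smallest possible (adjusted 0.667). The whole RUNX2 lists differed in length between these days in the same way. With regions drawn from replicate 2 or replicate 1 of the day 3 H3K4me3 lists alone, the difference was 20.8 or 21.2 points.

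Both day 3 RUNX2 lists had a peak at 1059 intergenic regions (44.3%, exact 95% interval 42.3 to 46.4%), where the share over all regions was 74.6%, and neither had one at 891 (37.3%; all regions 17%). The shares were lower than at gene ends in both libraries, by a mean of 36.1 percentage points (53.5 ± 7.58% against 89.7 ± 1.18%, SD, n = 2 libraries; exact sign-flip permutation p = 0.5, two-sided, the smallest possible). Inside genes they were 58.5 and 58.9%, close to the intergenic share in replicate 1 and above it in replicate 2. Where both marks were present, RUNX2 summits lay close to the H3K4me3 summit, at a median of 83 and 87 bp in intergenic regions, against 200 and 184 bp in the wider gene-end regions. RUNX2 peaks at intergenic regions ranked low in their lists: 2.56 and 1.65% of the overlapped regions had a peak among the best 10% of its list, against 14.3 and 12.8% at gene ends. Read from the RUNX2 side, 1242 of 17401 regions with RUNX2 in both day 3 lists were intergenic (7.14%), and 1093 of these overlapped an intergenic H3K4me3 region.

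The share with RUNX2 followed the width of the region. RUNX2 was in both lists at 10.8% of intergenic regions of up to 300 bp, at 32.6% of 300 to 500 bp, 65.9% of 500 to 1000 bp, 91.8% of 1000 to 1500 bp, 90.1% of 1500 to 2000 bp and 95.9% of wider ones. Gene-end regions of the same widths had 20.1, 41.4, 86.5, 98.5, 99.7 and 99.7%, higher in every width class but by less than in the whole. Regions inside genes ran close to intergenic ones up to 1500 bp, with 28.7% at 300 to 500 bp and 63.5% at 500 to 1000 bp. H3K4me3 on the other days followed width as well. In both day 0 lists were 1.34, 3.58, 19.0, 48.8, 64.8 and 81.6% of intergenic regions of these widths, against 3.13, 9.98, 55.3, 89.4, 96.5 and 98.5% of gene-end ones. The intervals of the classes overlapped at up to 300 bp, and the gap was widest at 1000 to 1500 bp. In both day 10 lists were 4.44, 18.2, 46.6, 75.8, 85.7 and 85.7% of intergenic regions, against 14.3, 41.4, 83.1, 97.1, 98.9 and 99.8% of gene-end ones. Of the 317 intergenic regions in all 6 H3K4me3 lists, 311 (98.1%) had RUNX2 in both lists, and of the 228 with H3K4me3 on day 3 only, 6 (2.63%). Width was part of the choice of regions, so these are descriptions.

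**Figure D3:**
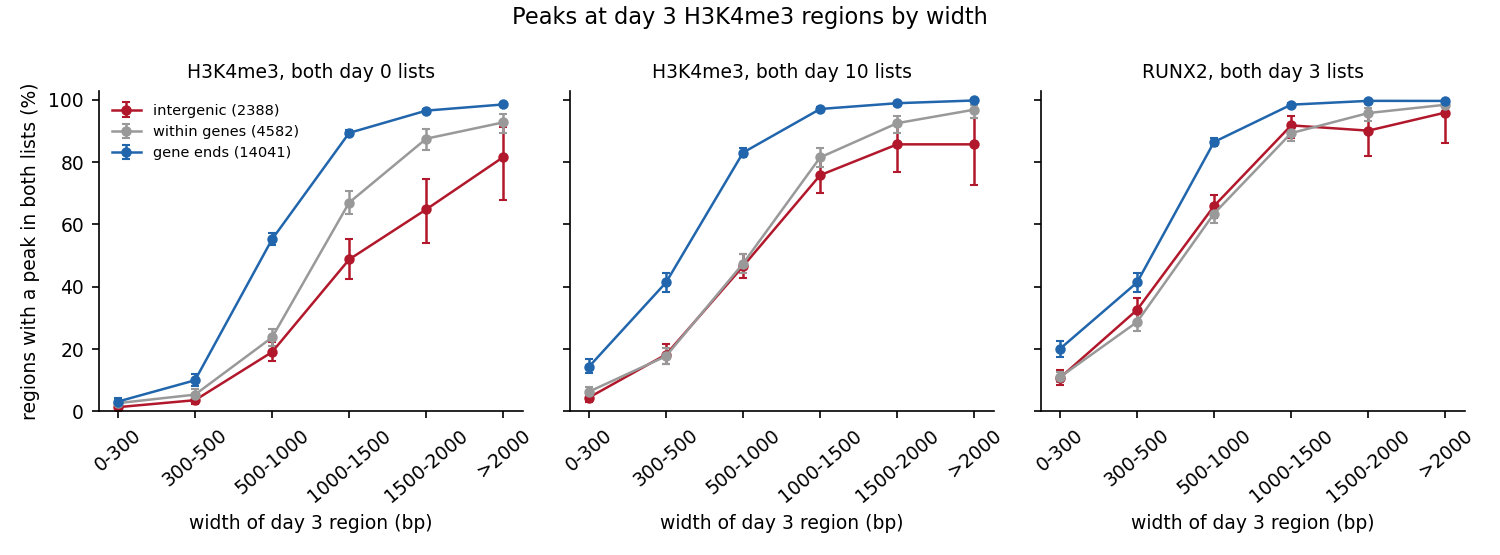
Share of day 3 H3K4me3 regions with a peak in both lists of H3K4me3 day 0, H3K4me3 day 10 and RUNX2 day 3 (%), by width of the day 3 region in bp, for intergenic regions, regions inside genes and gene-end regions; bars are exact 95% intervals for counting error. RUNX2 climbs from 10.8% of the narrowest to 95.9% of the widest intergenic regions, and in each panel gene-end regions lie above intergenic ones of the same width.

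Most intergenic regions lay within 50 kb of a gene. The median distance to the nearest end of any gene was 9908 bp (quartiles 4191 and 24040 bp), and to a protein-coding gene 23710 bp. Within 5 kb of a gene were 211 regions at 1 to 2 kb and 497 at 2 to 5 kb, and 104 (4.36%) lay over 100 kb away. The regions just past the limit of 1 kb lay 1004, 1004 and 1007 bp from a gene end, and those just short of it 999, 998 and 998 bp. The nearest gene was protein-coding for 999 regions (41.8%), a long noncoding RNA for 787 (33.0%), a pseudogene for 422 (17.7%) and a miRNA for 54 (2.26%). The farthest region, chr15:15090003-15090333, lay 623334 bp from Gm9630 and had no H3K4me3 on day 0, H3K4me3 in both day 10 lists and RUNX2 in both day 3 lists.

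Presence was lowest in the regions farthest from genes. H3K4me3 was in both day 0 lists at 18.0% of the regions 1 to 2 kb from a gene, at 14.4% of those 10 to 50 kb away and at 5.77% of those over 100 kb away. For both day 10 lists the shares were 37.9, 30.6 and 18.3%, and for RUNX2 in both day 3 lists 42.7, 45.6 and 32.7%. The median width fell alongside, with 472, 430 and 361 bp. Of the regions within 5 kb of a protein-coding gene whose strand the promoter table gives, 169 were upstream and 138 downstream, and RUNX2 was in both lists at 32.5% of the upstream and 51.4% of the downstream ones. The strand was not given for another 84. Within 5 kb of a gene-end region were 310 intergenic regions, and RUNX2 was in both lists at 35.8% of them, against 45.6% of the others.

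Intergenic regions were partly clustered. Another intergenic region lay within 10 kb of 887 (37.1%) and within 1 kb of 675, and the 887 formed 351 clusters beside 1501 single regions. Much of this came from single peaks of 1 library that met several peaks of the other: regions that share a day 3 peak joined into 2110 domains, and 505 regions (21.1%) lay within 10 kb of a region of another domain. Counted by domain, 16.6% had H3K4me3 in both day 0 lists, 33.6% in both day 10 lists and 47.1% RUNX2 in both day 3 lists.

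The largest cluster, chr9:3000064-3037562, held 31 regions of 25 domains in 37499 bp, and all 31 overlapped a RUNX2 peak of day 0 or day 10. Peaks of both antibodies lay in it on days 0, 3 and 10. Its day 3 H3K4me3 fold enrichments were low, 2.13 to 4.06 in replicate 1 and 2.46 to 3.88 in replicate 2. The medians over all intergenic regions were 9.98 and 5.49. Its day 3 RUNX2 peaks had 1.51 to 3.50 and 1.93 to 3.38. In all, 54 intergenic regions (2.26%) overlapped a RUNX2 peak of day 0 or day 10, where the share over all regions was 0.309%. They took in 83 of the 108 and 77 of the 102 RUNX2 peaks of day 0, and 78 of the 101 and 78 of the 97 of day 10. Of the 54, 19 had H3K4me3 in all 6 lists and 33 had RUNX2 in both day 3 lists. Without the 54, 2334 regions remained, of which 15.0% had H3K4me3 in both day 0 lists, 31.1% in both day 10 lists and 44.0% RUNX2 in both day 3 lists. Over genome-wide overlaps of the 2 lists of a day, intergenic ones were 86 of 100 for RUNX2 on day 0 and 86 of 91 on day 10.

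The next clusters differed in persistence. On the X chromosome, 12 regions of 55 to 437 bp lay in chrX:126745965-126771636, 40826 bp from 4932411N23Rik. Each was its own domain, and none had H3K4me3 in both lists of day 0 or of day 10 or RUNX2 in both. On chromosome 15, 10 regions covered 30116 bp of chr15:85645119-85688325, between D130051D11Rik and the lipid-metabolism regulator Ppara. Of these, 8 had H3K4me3 in both day 0 lists, 9 in both day 10 lists and 9 RUNX2 in both day 3 lists. The 10 regions made only 4 domains and included the widest intergenic region. The cluster chr2:73263564-73281837, with 8 regions of 3 domains, had its nearest region 1951 bp from Sp9, a zinc-finger gene. Of the 8, 1 had H3K4me3 in both day 10 lists, 1 RUNX2 in both and none H3K4me3 in both day 0 lists. The cluster chr8:20529038-20541284 held 9 regions of 84 to 738 bp, in 3 domains. It belonged to 47 regions in chr8:19771923-21675495, an interval noticed after the values were seen, of which 2 had H3K4me3 in both day 0 lists, 3 in both day 10 lists and 4 RUNX2 in both. The share of a chromosome's day 3 regions that were intergenic lay between 8.52% on chromosome 5 and 16.3% on the X chromosome, apart from the Y chromosome with 19 of 23.

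A skeletal gene was the nearest protein-coding gene of 85 intergenic regions, most of which lay nearer to a noncoding gene or pseudogene. The 85 belonged to 54 of 160 genes on lists for cartilage matrix, chondrocyte factors, maturation, osteoblasts, signalling and limb patterning. That makes 53.1 regions per 100 genes. Genes listed for other cell types had 12 regions at 11 of 110 genes (10.9 per 100), and all protein-coding genes 10.9 per 100. The flanks differed too: halfway to the neighbouring protein-coding gene on each side, the skeletal genes had a median of 80.5 kb, against 30.1 kb for the other cell type genes and 22.2 kb for all. Per megabase of flank the regions by list numbered 2.54 (cartilage matrix), 3.51 (chondrocyte factors), 3.89 (maturation), 5.93 (osteoblasts), 2.07 (signalling) and 1.99 (limb patterning). For the skeletal genes together they numbered 2.92, against 1.44 for the genes of other cell types and 1.37 for all. The signalling and limb patterning values lay near the 2.03 of genes with H3K4me3 at an end on day 3. Of the skeletal genes, 73.8% had such a gene-end mark on day 3, against 25.5% of the other cell type genes and 55.2% of all. The part of flank length and gene-end marking in the counts was not tested. The counts take each region singly, also where several share a day 3 peak, as at Sox9 and Sp7. No count by domain is given for the lists. Of the 85 regions, 36 (42.4%) had RUNX2 in both day 3 lists, 20 (23.5%) H3K4me3 in both day 0 lists and 27 (31.8%) in both day 10 lists, beside 44.3, 15.6 and 31.4% of all intergenic regions and 74.6, 58.8 and 70.3% of all day 3 regions. By list, RUNX2 was in both at 3 of 6 regions for cartilage matrix, 7 of 19 for chondrocyte factors, 6 of 14 for maturation, 4 of 15 for osteoblasts, 11 of 19 for signalling and 5 of 12 for limb patterning.

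Cartilage matrix genes had 6 regions at 4 of 28 genes. Acan, which encodes the large aggregating proteoglycan aggrecan, had 2, at chr7:78990641-78991893 (1253 bp) and chr7:78989281-78990358 (1078 bp), 61333 and 62868 bp upstream of the gene. The nearer one had fold enrichments of 25.4 and 8.87 in the day 3 H3K4me3 lists, 4.03 and 7.07 in the day 10 lists and 4.88 and 3.56 in the day 3 RUNX2 lists, and no peak in either day 0 list. The farther one had 25.4 and 7.07 on day 3, 5.33 and 6.83 on day 10, 4.88 and 3.80 for RUNX2 and none on day 0. Both thus had H3K4me3 in both lists of days 3 and 10 and in neither of day 0, as the gene end of Acan itself. They share a peak of replicate 1 and are 1 site in that library. The gene of any kind nearest to both was the long noncoding RNA gene Gm26633, at 26160 and 27695 bp. Dcn, which encodes the proteoglycan decorin, had 2 regions 144255 and 165156 bp away, of which chr10:97312464-97314344 had H3K4me3 in all 6 lists and RUNX2 in both. Both lay nearer to a noncoding gene or pseudogene, at 53513 and 69816 bp. Col2a1, which encodes the main cartilage collagen, had none.

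Beyond the genes with most regions and the central cartilage and bone genes, those named in this and the following groups were picked after their values were seen. Chondrocyte transcription factors had 19 regions at 9 of 16 genes. Sox9, the master factor of chondrocytes, whose gene is flanked by a desert known for long-range enhancers in mouse and human, had 5, all at lower coordinates and 159834 to 171694 bp away, and the nearest gene of any kind was BC006965. Their fold enrichments were 9.17 to 15.3 in replicate 1 and 3.48 to 6.10 in replicate 2 of day 3, and 4 of the 5 lay under 1 peak of replicate 1. All 5 had a peak in replicate 2 of day 10 and none in replicate 1, 2 had one in replicate 2 of day 0, and RUNX2 was in both lists at 1, chr11:112620242-112620895. Sox5 and Sox6, the partners of Sox9, had 1 each, at chr6:143751076-143751860 and chr7:115382358-115383127, 76565 and 87745 bp downstream. Both had H3K4me3 in both day 10 lists and RUNX2 in both day 3 lists, and on day 0 the Sox5 region had a peak in replicate 2 and the Sox6 region in neither. Long noncoding RNA genes lay nearer to them, Gm46720 at 6477 bp from the Sox5 region and Gm45999 at 9057 bp from the Sox6 region. Foxc1, a forkhead gene of skeletal progenitors, had a region of 3071 bp 2950 bp upstream, at chr13:31800626-31803696, with H3K4me3 in all 6 lists and RUNX2 in both. Klf4 had 3, of which 2 had H3K4me3 in all 6 lists, and Nfatc1 3, none of them in both lists of day 0 or of day 10.

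Genes of maturing chondrocytes had 14 regions at 12 of 24 genes. The region of Runx2 itself, chr17:44455877-44456266, 39721 bp downstream, had H3K4me3 in neither day 0 list and both day 10 lists, and RUNX2 in replicate 1 only. Spp1, which encodes the matrix protein osteopontin, had chr5:104406713-104407534, 27577 bp upstream, with a peak in replicate 2 of day 10 and a RUNX2 peak in replicate 1. At Dlx5, a homeobox gene of bone and cartilage, chr6:6873927-6875626 lay 2175 bp from the gene with H3K4me3 in all 6 lists and RUNX2 in both. Mef2d, which encodes a MEF2 factor, had a similar region of 2584 bp, 1933 bp upstream. Mef2c, the gene of the MEF2 factor that hypertrophy requires in mice, had 1 region, 77826 bp downstream, with H3K4me3 in both day 10 lists and RUNX2 in both. That region lay much nearer to the long noncoding RNA gene C130071C03Rik, at 3597 bp, and to Mir9-2, at 6020 bp. Ihh, Col10a1, Bmp2, Pthlh and Gdf5 were the nearest protein-coding gene of no intergenic region.

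Osteoblast genes had 15 regions at 7 of 17 genes. Col1a2, which encodes the second chain of type I collagen, had 5, all upstream, from 2064 to 140883 bp away. The widest, chr6:4487118-4490736 (3619 bp, 14882 bp upstream), had fold enrichments of 3.93 and 8.96 on day 0, 20.4 and 7.70 on day 3 and 6.34 in replicate 2 of day 10, none in replicate 1 of day 10, and 3.23 and 4.05 for RUNX2. The farthest, chr6:4363475-4364735, had H3K4me3 in every list but replicate 1 of day 0, and RUNX2 in both. Its nearest gene of any kind was the pseudogene Gm8602, at 3583 bp. Col1a1, the gene of the first chain, had 3 regions 4273 to 20363 bp away with no peak on day 0 or in replicate 1 of day 10 and no RUNX2. Sp7, the osteoblast factor osterix, had 2 neighbouring regions 9561 and 9925 bp away that share a peak of replicate 1. RUNX2 was in both lists at the nearer one and in replicate 1 at the other.

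**Figure D4:**
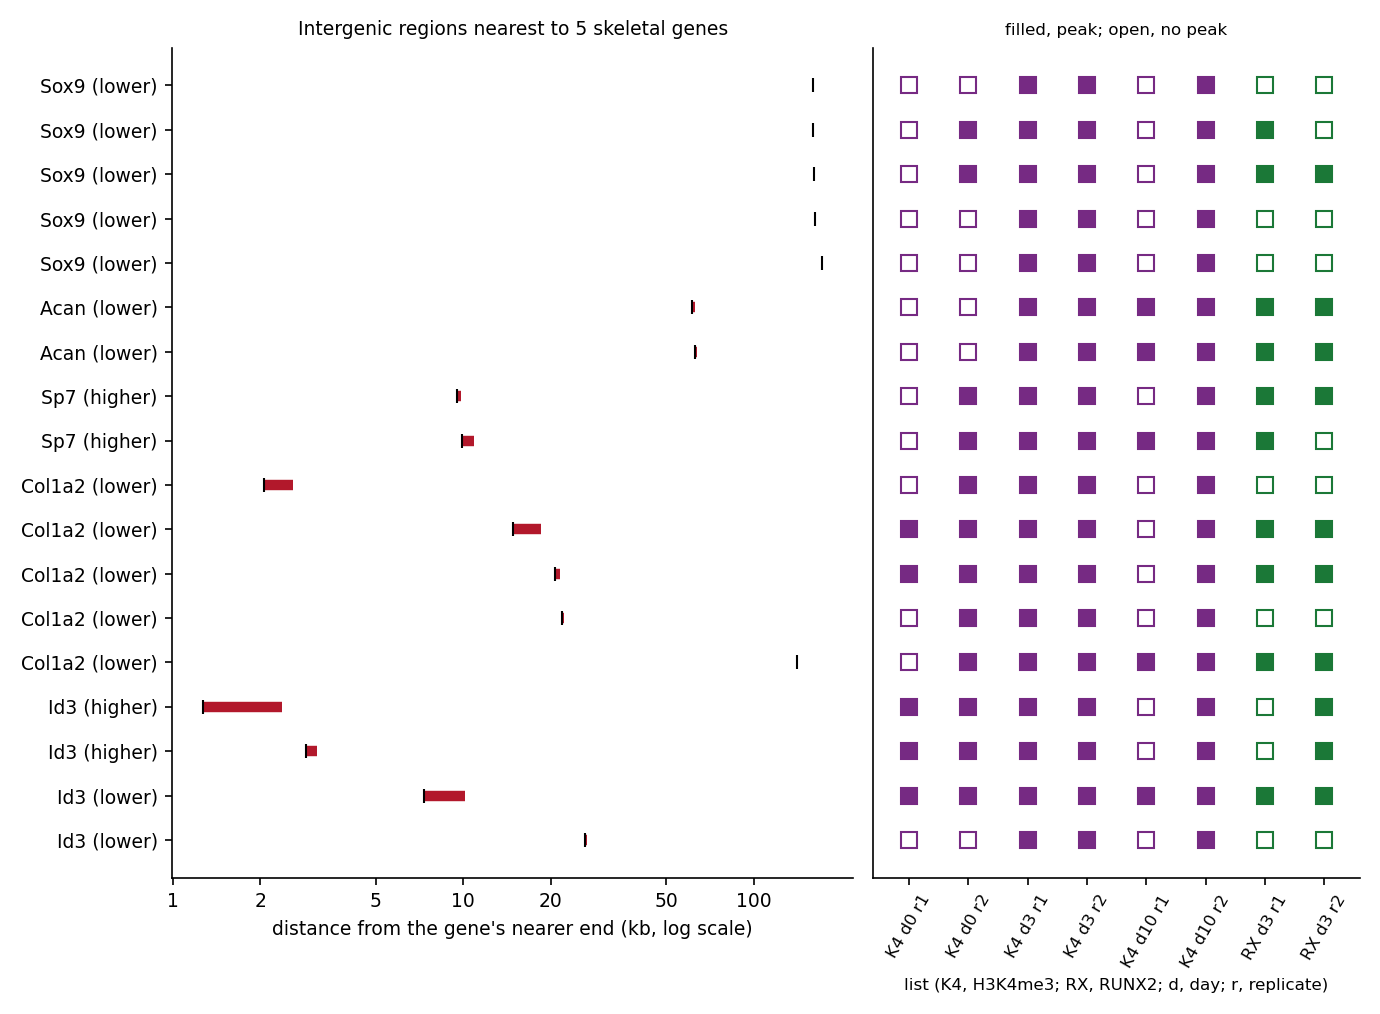
Intergenic regions whose nearest protein-coding gene is Sox9, Acan, Sp7, Col1a2 or Id3. Left, distance in kb (log scale) from the nearer end of the gene, at lower or higher coordinates, with the red bar giving the region's width; right, filled squares mark a peak in each of the 6 H3K4me3 and the 2 RUNX2 day 3 lists. The 2 Acan regions have no day 0 peak and peaks in all other lists shown, and none of the 5 Sox9 regions has a peak in replicate 1 of day 0 or of day 10.

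Signalling genes had 19 regions at 13 of 47 genes. The ID genes, which encode inhibitors of bHLH factors and are direct BMP targets, had 6. Id3 had 4, among them chr4:136133711-136136488, 7334 bp upstream and 2778 bp wide, with H3K4me3 in all 6 lists and RUNX2 in both. The long noncoding RNA gene Gm42329 lay nearer to that region, at 2107 bp. Id2 had a region of 3835 bp 1438 bp upstream, at chr12:25097530-25101364, also in all 6 lists and both RUNX2 lists, and Id1 a region of 215 bp with H3K4me3 outside day 3 only in replicate 2 of day 10. Nog, the BMP antagonist noggin, and Tgfbr1, a TGF-β receptor gene, each had 1 region in all 6 lists with RUNX2 in both. Gli3 and Fgfr2, a hedgehog effector and a fibroblast growth factor receptor gene, had 2 each, with RUNX2 in both lists at all 4. Limb patterning genes had 12 regions at 9 of 28 genes; Meis1 and Meis2 each had a region in all 6 lists with RUNX2 in both, while the 2 regions each of Twist1 and Hand2 had no RUNX2.

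Regions absent on day 0 and present later were led by the nearer Acan region. The 5 with the best rank among the 152 with no day 0 peak and both day 10 lists were the 2 Acan regions, chr8:121585644-121586037, 4401 bp upstream of the autophagy gene Map1lc3b, chr1:69790397-69791176, 35696 bp upstream of Spag16, and chr6:30982385-30982832, 23395 bp from Klf14. The Map1lc3b region was the only 1 of the 5 without RUNX2.

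miRNA hairpins were looked for after the widest regions had been seen, and the counts are descriptions. Outside the sites with RUNX2 on day 0 or 10, 57 intergenic regions lay within 20 kb of 64 of the 1005 hairpins on assembled chromosomes, 39 upstream of a hairpin and 24 downstream of one. RUNX2 was in both day 3 lists at 34 of the 57, and H3K4me3 in both day 0 lists at 18 and in both day 10 lists at 36. The shares over all intergenic regions were 44.3, 15.6 and 31.4%, and over all day 3 regions 74.6, 58.8 and 70.3%. The 57 had a median width of 564 bp, against 437 bp over all intergenic regions. The part of width in these shares was not tested.

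The miR-23a, miR-27a and miR-24 cluster, which is repressed by RUNX2 in mouse osteoblasts, had 3 regions upstream. The nearest, chr8:84200537-84205014, was 4478 bp wide and ended 3504 bp before Mir23a. It had fold enrichments of 13.3 and 7.85 on day 0, 30.2 and 8.49 on day 3, 18.0 and 12.01 on day 10, and 3.48 and 11.1 for RUNX2 on day 3. The next, chr8:84196958-84198860, 9658 bp upstream, also had peaks in all of these lists. The farthest, chr8:84192429-84192777, of 349 bp, had H3K4me3 outside day 3 only in replicate 2 of day 10. Of the 3, all but the nearest also lay within 20 kb upstream of Mir181d on the opposite strand, at 18171 and 13642 bp. The farthest lay nearer to Mir181c (13468 bp) than to Mir23a (15741 bp). Other regions upstream of Mir181d, chr8:84183406-84184624 and chr8:84186570-84187495, had RUNX2 in both day 3 lists.

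The let-7 family restrains proliferation and is needed for normal growth plate chondrocytes in mice. Its cluster of Mirlet7a-1, Mirlet7f-1 and Mirlet7d had 4 regions upstream, from 6506 bp before Mirlet7a-1. The nearest, chr13:48544778-48545805, had fold enrichments of 4.51 and 8.84 on day 0, 23.0 and 11.7 on day 3, 10.6 and 10.9 on day 10 and 6.45 and 10.4 for RUNX2. Of the 4, 3 had peaks in all 6 H3K4me3 and both RUNX2 lists. The widest intergenic region of all, chr15:85679442-85687619, lay upstream of another let-7 pair, 18984 bp before Mirlet7c-2, with Mirlet7b beyond it. Its fold enrichments were 5.33 and 11.96 on day 0, 22.8 and 13.3 on day 3, 7.31 and 8.89 on day 10 and 2.12 and 9.92 for RUNX2.

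The miR-17 cluster, which promotes proliferation and whose loss causes skeletal defects in mice, had 2 regions, 1866 and 2512 bp before Mir17. Both had H3K4me3 in replicate 2 of day 0, both day 10 lists and both RUNX2 lists, and both shared the same day 3 peak of replicate 1 (fold enrichment 12.4). The cluster of Mir322, Mir503, Mir542 and the Mir450 genes had 1 region, chrX:53058376-53059419, 4027 bp before Mir322, the mouse counterpart of human miR-424. It had no peak in either day 0 list, fold enrichments of 20.4 and 5.38 on day 3, 3.62 and 10.5 on day 10 and 2.36 and 7.54 for RUNX2. Its nearest gene of any kind was C430049B03Rik, at 1186 bp. The region 3415 bp before Mir449c, 2407 bp from Cdc20b, was found on the same days, with none on day 0, 4.46 and 7.73 on day 10 and 4.68 and 5.74 for RUNX2. Single regions 10212 bp before Mir146 and 10421 bp before Mir155 had peaks in all 6 H3K4me3 and both RUNX2 lists.

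**Figure D5:**
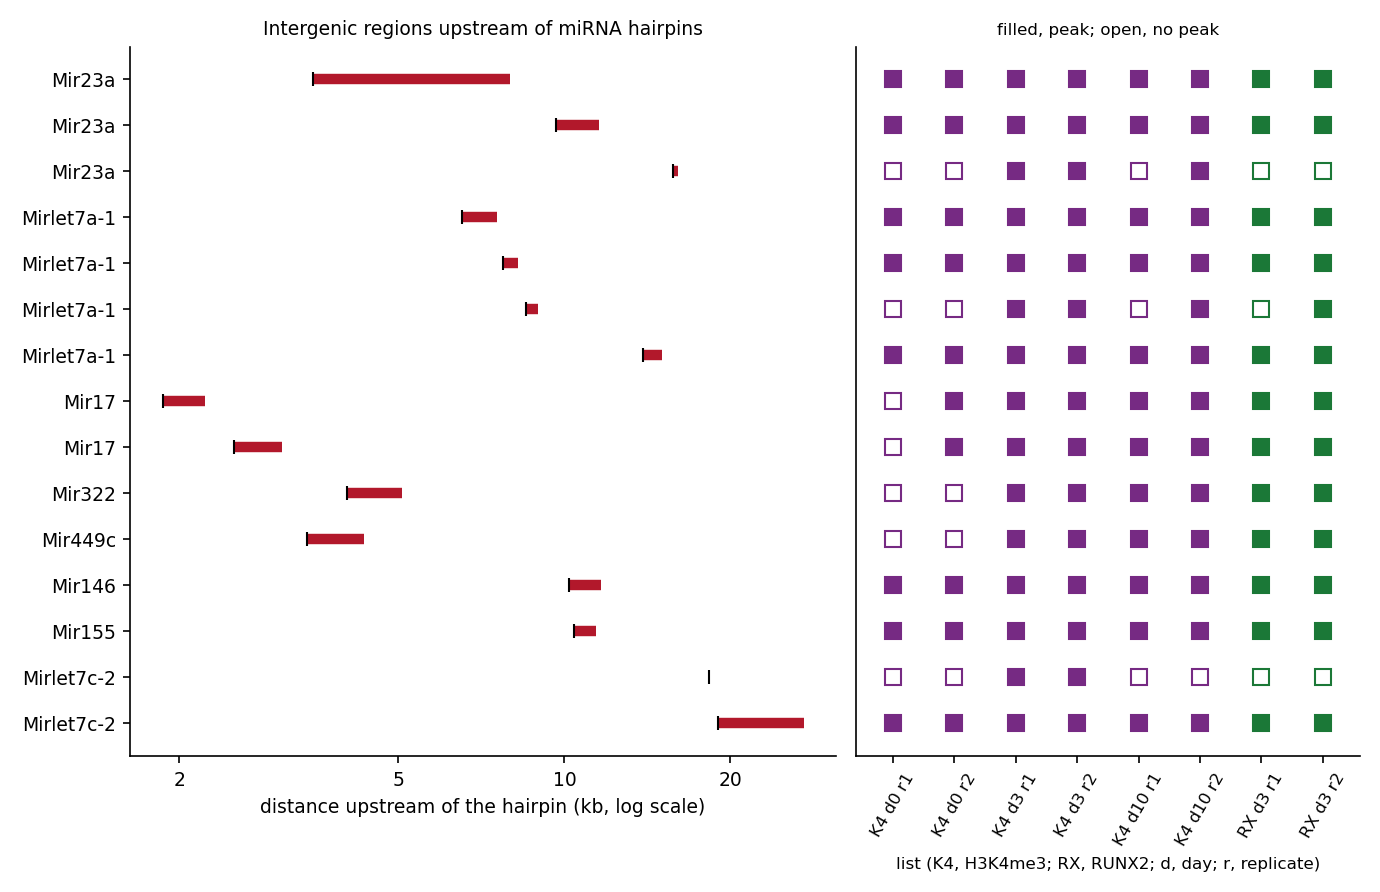
Intergenic regions upstream of 8 miRNA hairpins. Left, distance in kb (log scale) from the hairpin, with the red bar giving the region's width; right, filled squares mark a peak in each of the 6 H3K4me3 and the 2 RUNX2 day 3 lists. The regions before Mir322 and Mir449c have no day 0 peak, while those nearest to Mir23a, Mirlet7a-1, Mir146 and Mir155 have peaks in every list.

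Applied to other days, the same rule gave fewer regions. Overlaps of the 2 H3K4me3 lists were intergenic in 454 of 14649 cases (3.10%) on day 0, 2388 of 21011 (11.4%) on day 3 and 833 of 15527 (5.36%) on day 10. Of these, 406 of day 0 and 770 of day 10 overlapped an intergenic region of day 3. Both day 0 lists and 1 of the 2 day 10 lists were shorter than either day 3 list. With each H3K4me3 list cut to its 13765 top peaks, day 3 had 678 intergenic regions. No such count is given for days 0 and 10, and the part of list length in these counts was not tested.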

How the data were processed

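H3K4me3 and RUNX2 peak lists of 12 ATDC5 libraries were used; 2 input libraries were not analysed here. FastQC, Trim Galore, HISAT2 2.2.0 and MACS2 are named in the submitters' processing notes; their settings, the controls and any other version: not given in the sources used here. Reads were 75 bp, per the labels. The deposited narrowPeak lists give, per library, each peak's score, its fold enrichment (a ratio) and its −log10 p-value and q-value; all are the authors' and served only to rank or describe peaks of 1 list. The notes name GRCm39, but 44.3 to 76.3% of the summits of the H3K4me3 lists lay 1 kb or less from a gene end in the RefSeq table of GRCm38.p6, and 10.7 to 12.7% after a shift of 20 kb, so positions were read as GRCm38 and counted from 1.

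Peaks were intersected and classed against 49939 genes, 21883 of them protein-coding, with Python 3.11.15, NumPy 2.4.6, pandas 2.3.3, SciPy 1.17.1 and Matplotlib 3.10.9, in scripts tested on simulated data. A region had a peak when 1 bp overlapped. Strand came from the promoter table (17491 protein-coding genes). Intervals of shares are exact 95% intervals (Clopper-Pearson), for counting error alone. Libraries were compared with exact permutation tests, none of which could pass 0.05. Regions were named by fixed rules: members nearest to listed skeletal genes, the best ranked, widest, most clustered and farthest, those beside the limit, and the best ranked gains. The members and gene lists were chosen with earlier results of these data known. Alternatives were another q limit, equal list lengths, larger overlap, a limit of 5 kb, and each library left out.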

Additional observations from a re-analysis of the deposited data

Results flagged for a closer look

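RUNX2 differed between intergenic and gene-end regions in opposite directions on different days. In both day 3 libraries the share of regions with a RUNX2 peak was lower in intergenic regions, by a mean of −36.1 percentage points, intergenic minus gene-end, and in all 4 libraries of days 0 and 10 it was higher, by a mean of 1.97 points. This was noted because every library of day 3 went one way and every library of the other days the opposite way; the difference between the days was not tested. Of the 54 intergenic regions behind the day 0 and day 10 shares, 31 lay in the cluster chr9:3000064-3037562. No group had enough libraries for a check of single outlying samples.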

How the results depend on the processing

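All 4 comparisons of shares kept their direction under every alternative run, and none could pass the threshold. The RUNX2 lists of day 0, with 108 and 102 peaks, were never matched in length to those of day 3. So few peaks could overlap only a small part of the regions, and the kept direction between days 3 and 0 is no check on list length. With equal numbers of top peaks (13765 for H3K4me3 and 16859 for RUNX2 on day 3), 678 regions were intergenic, 27 of them nearest to a skeletal gene, and 40.4% had H3K4me3 in both day 0 lists, 59.6% in both day 10 lists and 81.9% RUNX2 in both. Where a peak had to cover at least 50% of the region, these shares were 8.87, 22.9 and 35.9%. Among peaks with −log10 q of 5 or more, the day 10 share was 34.7% and the RUNX2 share 49.7%. Over 5 kb from every gene end, 53 regions were nearest to a skeletal gene. In 2 alternatives chosen after seeing the data, the longer list of each day alone gave 45.3% on day 0 and 89.0% on day 10, and joined domains gave 33.6% on day 10 and 47.1% for RUNX2; another, without the sites of RUNX2 on day 0 or 10, left the counts within 1.5 times. Leaving out 1 library gave 5975 to 6095 regions, 142 to 195 of them nearest to a skeletal gene, 5.53 to 45.3% on day 0, 11.6 to 89.0% on day 10 and 17.2 to 58.9% for RUNX2. It gave differences of 0.565 to 58.1 points between days 10 and 0, 20.8 to 56.8 points for RUNX2 between days 3 and 0, −65.3 to −29.9 points for RUNX2 between classes and −65.2 to −35.8 points for H3K4me3 between classes. The RUNX2 day 10 libraries entered no test and were not left out. The labels give numbers but state no pairing; with the replicate number as a block, the differences of 29.4 and 51.5 points had p = 0.5 (exact permutation), the smallest possible. Median width was 292 to 357 bp when either day 3 library was left out. Depth is unknown, so a missing peak is no measure of absence.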
